A study of Mus musculus with 12 samples.

Results

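The cytoplasmic scaffolds, junctional adhesion molecules (JAMs) and polarity proteins of endothelial junctions were examined in brain endothelium of Gpr124 mutant mouse embryos. The 9 genes were listed by name as Tjp1, Cgn, Cgnl1, F11r, Jam2, Jam3, Esam, Pard3 and Pard6g, and the rule used their names only. All 9 were found among the 49056 genes of the count tables that the annotation names, and 8 had enough reads to be tested. Cgn was the exception. Pard6g also stood in a blood-brain barrier list that the study drew from these same libraries, and Tjp1 was a gene that the study plotted, so neither is independent evidence of its direction. All 9 genes were chosen with earlier results of these data known, so this limit is not confined to Pard6g and Tjp1.

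CD31+ CD140b- CD45- 7AAD- cells were sorted from E15.5 forebrains, and RNA-seq was performed with 1 embryo per library and 4 embryos per genotype. WT embryos carried the intact receptor. Gpr124ΔC/ΔC embryos carried a V5 tag and stop codon, inserted by CRISPR in zygotes just before the sequence for the intracellular domain of GPR124, and came from intercrosses of heterozygotes. Gpr124-/- embryos were homozygous for a germline lacZ null allele and came from intercrosses of Gpr124+/- parents. Both alleles are present in every cell of the embryo rather than in endothelium alone. The question was how far each genotype changed the parts of the junction that lie beneath or beside the claudins.

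Tight junctions seal the cleft between brain endothelial cells and carry much of the blood-brain barrier. Their membrane proteins are tied to actin by scaffolds that hold several PDZ domains, small folds that grip the last residues of a partner protein. ZO-1, the product of Tjp1, is the central scaffold, and cingulin (Cgn) and its relative paracingulin (Cgnl1) link it to actomyosin. JAM-A (F11r), JAM-B (Jam2), JAM-C (Jam3) and ESAM (Esam) are immunoglobulin proteins that bridge neighboring cells. The tails of the JAMs can recruit PAR-3 (Pard3), which works with a PAR-6 protein such as PAR-6γ (Pard6g), CDC42 and atypical protein kinase C to set the apical side of the cell and to build junctions.

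The ends of the 4 immunoglobulin coding sequences show the site through which these proteins reach the scaffolds. Each line holds the last 30 bases of the coding sequence, 5′ to 3′, with the 12 bases for the final 4 residues, the PDZ-binding end, in capitals and the stop codon at the end in lower case. The bases were read from the GRCm38 genome with GENCODE vM21 annotation, and each stretch lies in the last exon of its gene.
F11r: ttcaaacagacctcgTCGTTCCTGGTGtga
Jam2: ttcaagcacacaaaaTCCTTTATAATTtaa
Jam3: ttcagacacaaatcgTCCTTTGTTATCtga
Esam: gcacagagtcaggctGGGTCTCTTGTGtga

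The F11r stretch is at chr1:171463065-171463094 on the plus strand in exon 10. That of Jam2 is at chr16:84822790-84822819 on the plus strand in exon 10. That of Jam3 is at chr9:27098366-27098395 on the minus strand in exon 9, and that of Esam is at chr9:37537753-37537782 on the plus strand in exon 7. Over the whole coding sequence, the JAM genes were 54.5% to 56.0% identical to each other in pairwise alignment, while Esam was 49.4% to 51.2% identical to them. The members are therefore far from near-identical copies, and Cgn and Cgnl1 were 56.1% identical.

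Libraries held 13877572 to 22551163 counts. Adgra2, the gene for GPR124, had 28.3 to 51.1 TPM (transcript abundance, which is reads per unit of gene length scaled to a fixed total) in WT, 34.1 to 63.4 in Gpr124ΔC/ΔC and 4.03 to 6.29 in Gpr124-/-, so the knockout label matched its libraries. The 9 endothelial markers summed to 4238 to 5078 TPM in WT, 3916 to 5860 in Gpr124ΔC/ΔC and 4756 to 5546 in Gpr124-/-. Single markers differed within these sums, since Emcn, Cdh5 and Pecam1 rose and Tek and Erg fell in Gpr124-/- against WT, by log2 fold changes of 1.26, 0.74, 0.54, −0.73 and −0.41 (edgeR, adjusted p under 0.05). Gm23935 held 12.5% of TPM in WT replicate 2 and 14.1% in Gpr124ΔC/ΔC replicate 1, against at most 3.04% in the other 10 libraries. Embryo labels began with J, K, L or M. The meaning of the letter is not given in the sources used here, M occurred only in Gpr124-/-, and only K held both Gpr124-/- and WT embryos. Because sorted cells were measured in bulk, fewer cells of a type and less RNA per cell cannot be told apart.

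In WT endothelium the adhesion molecules Esam and F11r were the most abundant of the 9 genes, and Cgn, Pard3 and Pard6g had the lowest means. On the TPM scale, which allows genes of different length to be compared, the mean levels fell in the order Esam, F11r, Tjp1, Jam2, Cgnl1, Jam3, Pard6g, Pard3 and Cgn. Most neighbors in this order did not overlap between libraries. The ranges of Tjp1 and Jam2 overlapped, although Tjp1 was above Jam2 in all 4 WT libraries, and Jam3 was above Pard6g in only 2 of 4. The order of the scaffolds and adhesion molecules was the same in all 3 genotypes, but the ranges of Jam2 and Cgnl1 overlapped in both mutants, and Jam2 was the higher in all 4 Gpr124ΔC/ΔC libraries and in 2 of 4 Gpr124-/- libraries. At the lower end the polarity genes changed places. Pard6g was above Pard3 in all 4 WT libraries and below it in all 4 Gpr124ΔC/ΔC and all 4 Gpr124-/- libraries, although the ranges still overlapped in Gpr124ΔC/ΔC.

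**Figure D1:**
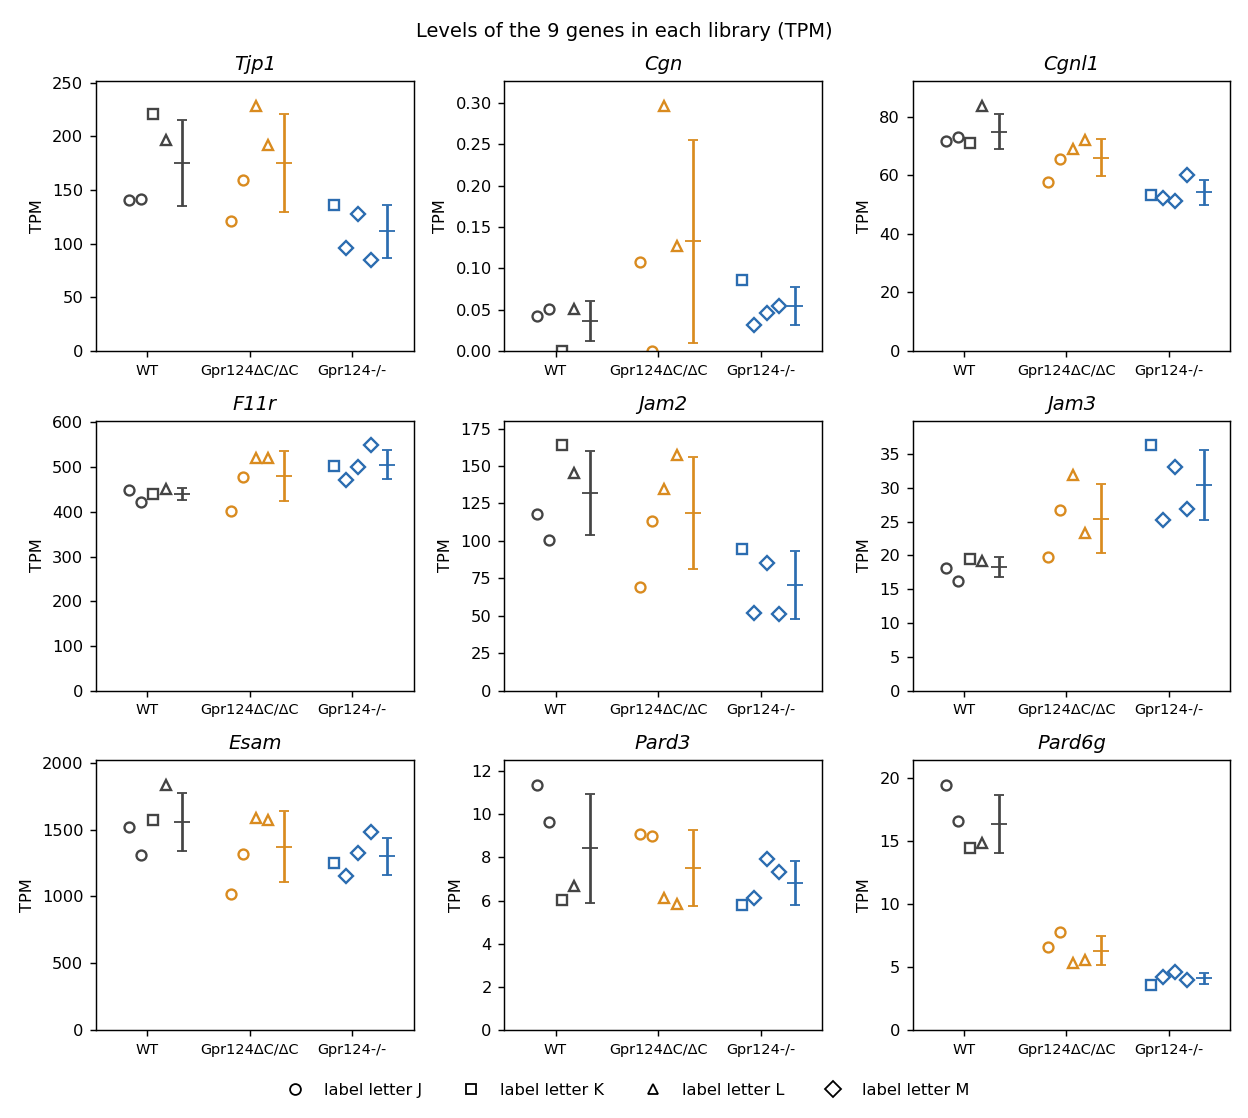
TPM of each of the 9 genes in the 12 libraries (vertical axes, linear from 0, different for each gene), with genotypes side by side; each point is 1 embryo, its shape shows the label letter, and the cross line and bar give the mean and SD of 4. Pard6g separates all 3 genotypes, at 14.4 to 19.5 in WT, 5.33 to 7.81 in Gpr124ΔC/ΔC and 3.58 to 4.61 in Gpr124-/-, while Cgn stays below 0.3 TPM in every library.

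Against WT, 4 of the 8 tested genes fell in Gpr124-/- and 1 rose. Pard6g, Jam2, Tjp1 and Cgnl1 were the genes that fell and Jam3 the gene that rose (adjusted p under 0.05 from the quasi-likelihood test of edgeR, with Benjamini-Hochberg adjustment over all 16637 genes tested). Over all genes tested, 9.32% were lower and 10.5% higher in that comparison. Pard6g alone also changed by more than 1 on the log2 scale, as 9.88% of all genes did in either direction. The median log2 fold change of the 8 was −0.43 beside −0.01 over all genes, and the median of its size was 0.60 beside 0.27. With a term for the letter that opens an embryo label, only Pard6g of the 5 still passed (edgeR), beside 6.16% of all genes in that fit. The letter term leaves the comparison to the 1 Gpr124-/- and 1 WT library that share the letter K, and between those the log2 ratios kept the direction of all 5, at −2.06 for Pard6g, −0.84 for Jam2, −0.74 for Tjp1, −0.46 for Cgnl1 and 0.85 for Jam3. Without both libraries rich in Gm23935, 5 genes still passed the adjusted p, and Jam2 joined Pard6g beyond a log2 fold change of 1.

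In Gpr124ΔC/ΔC, 1 of the 8 genes passed the adjusted p. Pard6g fell and passed both thresholds, and no gene was called higher. Over all genes tested, 2.24% were lower and 1.85% higher than in WT, and 1.92% passed both thresholds. At an unadjusted p under 0.05 edgeR called 4 of the 8, beside 14.4% of all genes. These were Pard6g, Cgnl1 and Esam, which were lower, and Jam3, which was higher. The median log2 fold change of the 8 was −0.24 beside 0.01 over all genes, and the median size was 0.26 beside 0.17. Both mutants were compared with the same 4 WT libraries, so the comparisons are not independent of each other.

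Between the mutants, Tjp1 was lower in Gpr124-/- than in Gpr124ΔC/ΔC and the other 7 genes did not pass the adjusted p. Over all genes tested, 3.89% were lower and 4.93% higher in Gpr124-/-. None of the 8 passed both thresholds in edgeR, at the adjusted or the unadjusted p, or in DESeq2 or limma, while 4.6% of all genes passed them in edgeR. At an unadjusted p under 0.05 edgeR called 5 of the 8, beside 22.8% of all genes. At an adjusted p under 0.05 DESeq2 called 3 of the 8, beside 12.7% of all genes, and limma none, beside 5.58%.

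**Figure D2:**
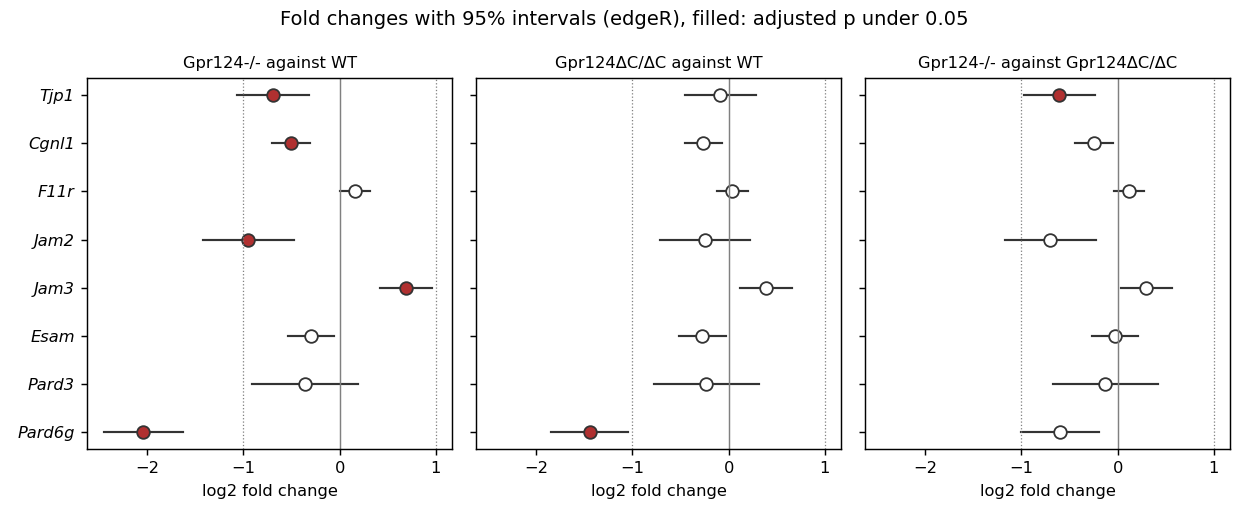
Log2 fold changes (horizontal axis) of the 8 tested genes with their 95% intervals from edgeR, in 3 panels for the 3 comparisons; filled points passed an adjusted p under 0.05 and dotted lines mark a log2 fold change of 1 in either direction. Filled points are 5 in Gpr124-/- against WT, Pard6g alone in Gpr124ΔC/ΔC against WT, and Tjp1 alone between the mutants.

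Among the scaffolds, Tjp1 and Cgnl1 fell in Gpr124-/-, and Cgn was at the limit of detection in every genotype. Tjp1 lies on chromosome 7 of GRCm38 from 65296165 to 65527781 on the minus strand. It was at 141, 141, 221 and 197 TPM in the WT replicates, at 121, 159, 229 and 192 in Gpr124ΔC/ΔC, and at 136, 96.2, 128 and 85.1 in Gpr124-/-. All 4 Gpr124-/- libraries were below all WT libraries, while WT and Gpr124ΔC/ΔC spanned nearly the same range. Means were 175 ± 40.2 (SD, n = 4), 175 ± 45.9 (SD, n = 4) and 111 ± 24.5 (SD, n = 4) TPM.

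The log2 fold change of Tjp1 in Gpr124-/- against WT was −0.69 ± 0.17 (SE, adjusted p = 0.0117, edgeR with Benjamini-Hochberg adjustment), or 1.62-fold lower. Over 22 alternative fits its adjusted p ranged from 0.00172 to 0.129 and was under 0.05 in 18, all with the same sign. In Gpr124ΔC/ΔC the log2 difference from WT was −0.09, with a 95% interval from −0.46 to 0.28 (adjusted p = 0.925, edgeR). ZO-1 mRNA was 1.52-fold lower in Gpr124-/- than in Gpr124ΔC/ΔC (log2 fold change −0.61 ± 0.17, SE, adjusted p = 0.045, edgeR). That last call was close to the threshold. With 1 library left out the log2 fold change stayed between −0.70 and −0.49, but the call was lost without WT replicate 2 (adjusted p = 0.0554) or 4 (0.0583), Gpr124ΔC/ΔC replicate 2 (0.0624), 3 (0.132) or 4 (0.109), or Gpr124-/- replicate 2 (0.124), 3 (0.0669) or 4 (0.117), all from edgeR.

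Cgnl1 was at 71.7, 73.2, 70.9 and 83.9 TPM in WT, at 57.7, 65.6, 69.0 and 72.2 in Gpr124ΔC/ΔC and at 53.2, 52.1, 51.2 and 60.3 in Gpr124-/-. Paracingulin mRNA was thus below every WT library in all 4 Gpr124-/- embryos and in 3 of 4 Gpr124ΔC/ΔC embryos, and on the CPM scale of the fit in all 4 of each. Its log2 fold change in Gpr124-/- against WT was −0.51 ± 0.09 (SE, adjusted p = 0.0014, edgeR), or 1.42-fold lower, and the call was lost in 1 of 22 alternatives, the letter term (adjusted p = 0.204). In Gpr124ΔC/ΔC the log2 difference was −0.26, with an interval from −0.46 to −0.07, and did not pass the adjusted test (adjusted p = 0.154, edgeR). The gene lies on chromosome 9 from 71626509 to 71771602 on the minus strand.

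Cgn, on chromosome 3 from 94760069 to 94786492 on the minus strand, had 0 to 8 reads per library. It had 2, 2, 0 and 2 reads in WT, 4, 0, 8 and 4 in Gpr124ΔC/ΔC and 3, 1, 2 and 2 in Gpr124-/-, and its highest level was 0.297 TPM. At this depth no difference could be detected, since 3 reads, the upper limit that a count of 0 allows, were worth 0.0639 to 0.111 TPM in the libraries with reads. Its share of the summed Cgn and Cgnl1 TPM was at most 0.428%, so the cingulin family was represented almost wholly by Cgnl1.

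Among the adhesion molecules, Jam2 fell and Jam3 rose in Gpr124-/-, while F11r and Esam did not pass the test. Jam2 lies on chromosome 16 from 84774123 to 84825928 on the plus strand. It was at 118, 101, 164 and 146 TPM in WT, at 69.0, 114, 134 and 157 in Gpr124ΔC/ΔC and at 94.3, 51.6, 85.5 and 51.2 in Gpr124-/-. The Gpr124-/- libraries lay below all WT libraries, but 1 Gpr124ΔC/ΔC library, replicate 1, lay among them. Against WT, JAM-B mRNA was 1.93-fold lower in Gpr124-/- (log2 fold change −0.95 ± 0.22, SE, adjusted p = 0.00768, edgeR). The adjusted p ranged from 0.000422 to 0.139 over 22 alternatives and was under 0.05 in 20. In Gpr124ΔC/ΔC the log2 difference was −0.25, with an interval from −0.72 to 0.22 (adjusted p = 0.73, edgeR).

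Jam3 went the other way. The gene, on chromosome 9 from 27097384 to 27155421 on the minus strand, was at 18.1, 16.2, 19.5 and 19.2 TPM in WT, at 19.8, 26.7, 31.8 and 23.3 in Gpr124ΔC/ΔC and at 36.3, 25.3, 33.0 and 26.9 in Gpr124-/-. Every library of either mutant was above every WT library. In Gpr124-/- against WT the rise was 1.61-fold (log2 fold change 0.69 ± 0.12, SE, adjusted p = 0.0015, edgeR), with a smallest log2 fold change of 0.61 over 22 alternatives and an adjusted p under 0.05 in 21. In Gpr124ΔC/ΔC the log2 difference from WT was 0.39, with an interval from 0.12 to 0.66, and did not pass (adjusted p = 0.117, edgeR).

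Jam3 was the only member whose exons overlapped those of another gene. Gm48796 on the opposite strand covers 1159 bases, or 36.2%, of the 3200 exon bases of Jam3. It was at 1.81 to 3.18 TPM, and its log2 fold change in Gpr124-/- against WT was 0.32 ± 0.19 (SE, adjusted p = 0.295, edgeR). Whether counting used strand is not given in the sources used here, so reads from the pair cannot be told apart.

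Platelet genes rose in Gpr124-/-, as Jam3 did. The 5 platelet markers summed to 231 to 455 TPM in WT, 315 to 438 in Gpr124ΔC/ΔC and 497 to 1435 in Gpr124-/-. In Gpr124-/- against WT 4 of the 5 rose, Pf4, Ppbp, Itga2b and Gp9 (edgeR). None of the 5 was called in Gpr124ΔC/ΔC against WT. Among Gpr124-/- libraries, replicate 1 had the lowest platelet sum (497 TPM) and the highest Jam3 (36.3 TPM). Replicates 2 and 4 had the highest platelet sums (1434 and 1435 TPM) and the lowest Jam3 (25.3 and 26.9 TPM). The 6 erythroid markers summed to 6652 to 11200 TPM in WT, 5338 to 9644 in Gpr124ΔC/ΔC and 17610 to 52520 in Gpr124-/-, and 5 of 6 rose. Macrophage markers summed to 2.65 to 7.40, 6.21 to 10.3 and 15.6 to 40.3 TPM. P2ry12 alone ranged over 2.40 to 5.92, 4.09 to 9.90 and 8.83 to 40.1 TPM. It was 1 of the 2 tested among 6 and rose in Gpr124-/- against WT (log2 fold change 2.57, adjusted p = 0.000734, edgeR). Csf1r, the other tested, was not called (log2 fold change 0.04, adjusted p = 0.973, edgeR). Of the other markers, Ptprc, Cx3cr1 and Aif1 were below 1 TPM in every library. C1qa reached 5.16 TPM in Gpr124-/- and Csf1r 1.44 TPM in Gpr124ΔC/ΔC. F11r and Esam are also known from platelets. The part of these cells in the levels of the adhesion molecules was not tested.

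F11r, on chromosome 1 from 171437535 to 171464603 on the plus strand, varied least relative to its mean among the WT libraries. JAM-A mRNA was at 449, 422, 440 and 451 TPM in WT, at 403, 479, 520 and 520 in Gpr124ΔC/ΔC and at 503, 471, 501 and 549 in Gpr124-/-. All Gpr124-/- libraries were above all WT libraries (exact two-sided permutation p = 0.0286, the smallest that 4 against 4 libraries can give). In the fit the log2 difference was 0.16, with an interval from −0.001 to 0.32, and did not pass (adjusted p = 0.167, edgeR). Its interval in Gpr124ΔC/ΔC against WT was −0.12 to 0.20 (adjusted p = 0.92, edgeR).

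Esam was the most abundant of the 9 genes in every library. It lies on chromosome 9 from 37528078 to 37538319 on the plus strand and was at 1523, 1308, 1575 and 1836 TPM in WT, at 1018, 1318, 1584 and 1573 in Gpr124ΔC/ΔC and at 1247, 1150, 1322 and 1482 in Gpr124-/-. The genotypes overlapped on the TPM scale, while on the CPM scale of the fit all 4 Gpr124ΔC/ΔC libraries lay below all WT libraries. The log2 difference from WT was −0.30 in Gpr124-/- (interval −0.54 to −0.06, adjusted p = 0.0795, edgeR) and −0.27 in Gpr124ΔC/ΔC (interval −0.51 to −0.03, adjusted p = 0.257, edgeR). Without Gpr124-/- replicate 4 the Gpr124-/- difference was −0.37 and passed (adjusted p = 0.0172, edgeR).

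Within the group of 4 adhesion molecules the mean share of Esam was lower, and those of F11r and Jam3 higher, in both mutants than in WT. The share of Esam in their summed TPM was 72.4% ± 1.75 (SD, n = 4) in WT, 68.6% ± 1.06 (SD, n = 4) in Gpr124ΔC/ΔC and 68.1% ± 1.63 (SD, n = 4) in Gpr124-/-. F11r held 20.6% ± 1.89 (SD, n = 4), 24.3% ± 1.81 (SD, n = 4) and 26.6% ± 0.875 (SD, n = 4). Jam3 held 0.853%, 1.28% and 1.60%. For these 3 genes each mutant was separate from WT, with an exact two-sided permutation p of 0.0286 over the 70 orders of 4 against 4 libraries in each of the 6 tests. The share of Jam2 was 6.11% in WT and 3.72% in Gpr124-/- (exact permutation p = 0.0286) and was 5.82% in Gpr124ΔC/ΔC, where it overlapped WT (p = 0.657, exact permutation). These were among 21 tests of shares, none of which was under 0.05 after Benjamini-Hochberg adjustment over the 21, and shares of 1 total move against each other by construction. With raw counts in place of TPM, Esam in Gpr124-/- and F11r in Gpr124ΔC/ΔC were no longer separate from WT (exact permutation p = 0.2 and 0.0857).

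**Figure D3:**
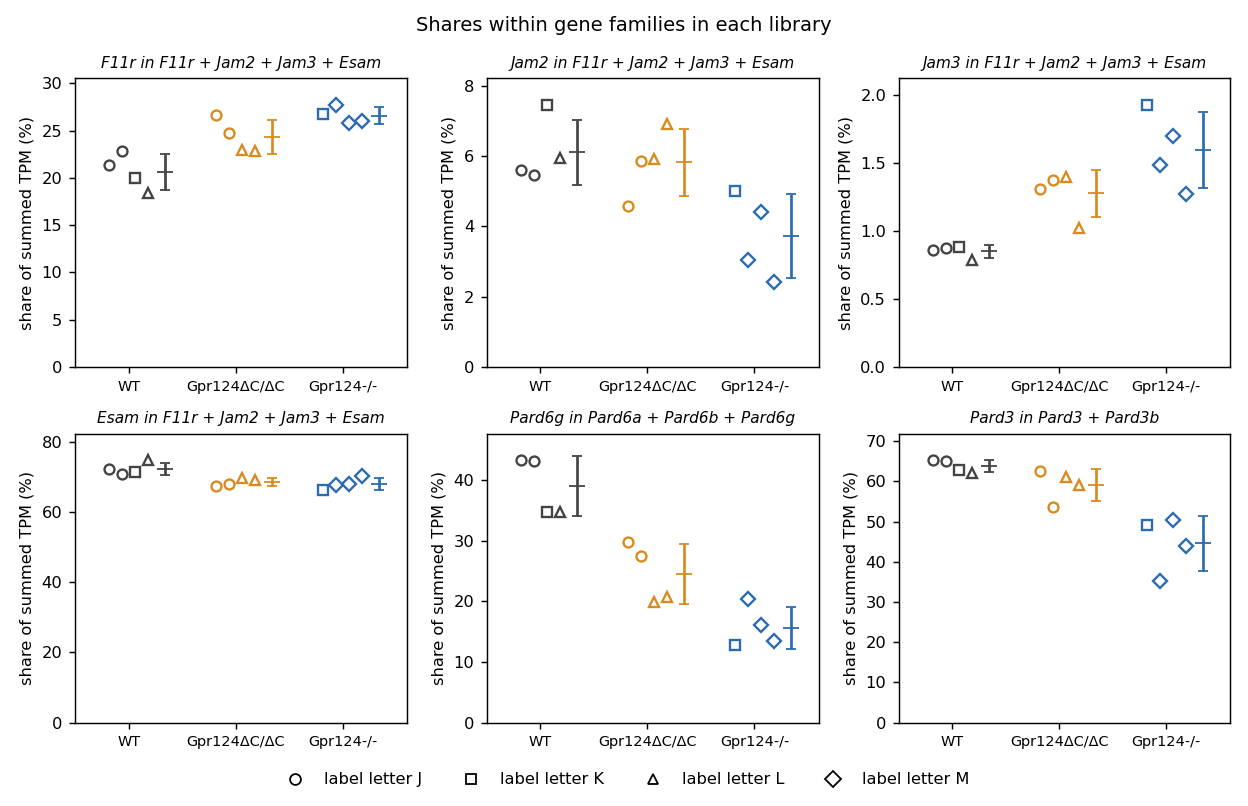
Share of a gene in the summed TPM of its family (vertical axes, percent, from 0) in the 12 libraries, by genotype; each point is 1 embryo, its shape shows the label letter, and the cross line and bar give the mean and SD of 4. Pard6g has a mean share of PAR-6 of 39.0% in WT, 24.4% in Gpr124ΔC/ΔC and 15.6% in Gpr124-/-, and Pard3 has a mean share of PAR-3 of 63.8% in WT and 44.6% in Gpr124-/-.

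Of the 8 tested genes, Pard6g had the largest fold change against WT in both mutants. PAR-6γ is 1 of 3 PAR-6 proteins, the partners through which active CDC42 reaches atypical protein kinase C. The gene lies on chromosome 18 of GRCm38 from 80046895 to 80119640 on the plus strand. It was at 19.5, 16.6, 14.4 and 14.9 TPM in WT, at 6.57, 7.81, 5.33 and 5.53 in Gpr124ΔC/ΔC and at 3.58, 4.24, 4.61 and 3.96 in Gpr124-/-. The 3 genotypes did not overlap. Behind these values were 301 to 477 reads per library in WT, 75 to 127 in Gpr124ΔC/ΔC and 65 to 105 in Gpr124-/-, and the mutant means were 38.6% and 25.1% of the WT mean.

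In the fit, Pard6g was 4.11-fold lower in Gpr124-/- than in WT (log2 fold change −2.04 ± 0.19, SE, adjusted p = 7.98e-06, edgeR) and 2.72-fold lower in Gpr124ΔC/ΔC (−1.44 ± 0.18, SE, adjusted p = 0.000624, edgeR). It passed both thresholds in both comparisons under all 22 alternatives, with log2 fold changes from −2.11 to −1.76 and from −1.54 to −1.25. Within embryo label letters the ratio of Gpr124ΔC/ΔC to WT was −1.38 on the log2 scale among J libraries (2 against 2) and −1.56 among L libraries (2 against 1). Between the mutants the log2 difference was −0.60, with an interval from −1.003 to −0.19, and did not pass (adjusted p = 0.071, edgeR), although it did with DESeq2 (0.0429) and with upper-quartile factors (0.046, edgeR).

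Neither of the other PAR-6 genes was called in edgeR. Pard6a was at 25.4 ± 2.98 (SD, n = 4) TPM in WT, 19.4 ± 3.04 (SD, n = 4) in Gpr124ΔC/ΔC and 22.3 ± 4.04 (SD, n = 4) in Gpr124-/-, and its log2 differences from WT were −0.47 (adjusted p = 0.0902, edgeR) and −0.22 (adjusted p = 0.311, edgeR). Pard6b, common in epithelia, was below 1 TPM in every library and had too few reads to be tested. The share of Pard6g in the summed PAR-6 TPM was 39.0% ± 4.91 (SD, n = 4) in WT, 24.4% ± 4.94 (SD, n = 4) in Gpr124ΔC/ΔC and 15.6% ± 3.44 (SD, n = 4) in Gpr124-/-. Each mutant was separate from WT (exact two-sided permutation p = 0.0286 for both), and the mutants overlapped by 1 library (p = 0.0571, exact permutation).

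Pard3, on chromosome 8 from 127063893 to 127612286 on the plus strand, encodes the scaffold that binds JAM tails. Its levels were 11.4, 9.63, 6.02 and 6.66 TPM in WT, 9.10, 8.99, 6.12 and 5.83 in Gpr124ΔC/ΔC and 5.82, 6.13, 7.95 and 7.34 in Gpr124-/-. The genotypes overlapped, and the J libraries of WT and Gpr124ΔC/ΔC were the highest of the 12. The log2 difference from WT was −0.36 in Gpr124-/- (interval −0.91 to 0.19, adjusted p = 0.382, edgeR) and −0.23 in Gpr124ΔC/ΔC (interval −0.78 to 0.31, adjusted p = 0.824, edgeR).

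The balance between Pard3 and its relative Pard3b varied little among WT embryos. Pard3b was at 4.71 ± 1.11 (SD, n = 4) TPM in WT, 5.29 ± 1.80 (SD, n = 4) in Gpr124ΔC/ΔC and 8.63 ± 2.21 (SD, n = 4) in Gpr124-/-, with a log2 difference from WT of 0.83 in Gpr124-/- that did not pass (adjusted p = 0.0554, edgeR). Pard3 made up 63.8% ± 1.58 (SD, n = 4) of the pair in WT, 59.1% ± 3.95 (SD, n = 4) in Gpr124ΔC/ΔC and 44.6% ± 6.83 (SD, n = 4) in Gpr124-/-. The Gpr124-/- shares were below those of every WT and every Gpr124ΔC/ΔC library (exact two-sided permutation p = 0.0286 for both comparisons). For Gpr124ΔC/ΔC against WT the exact permutation p was 0.0571.

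**Figure D4:**
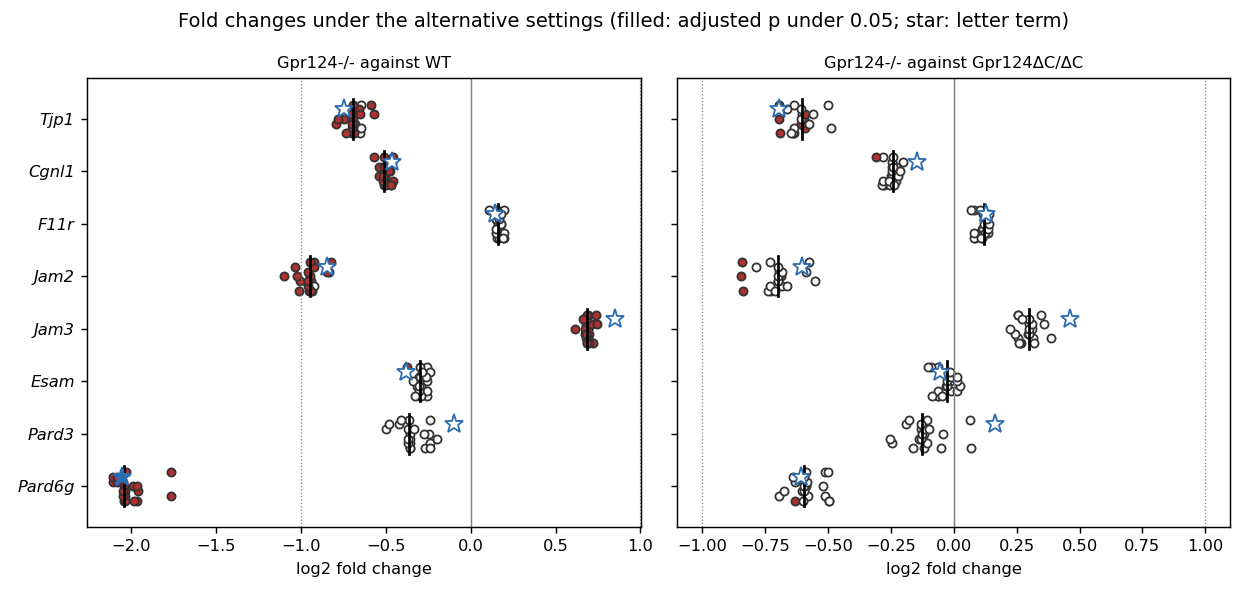
Log2 fold changes (horizontal axis) of the 8 tested genes in Gpr124-/- against WT (left) and against Gpr124ΔC/ΔC (right), with a vertical bar for the value reported, a point for each alternative fit (22 in all), a star for the label letter term, filled symbols for an adjusted p under 0.05, and dotted lines at a log2 fold change of 1. Against WT, Pard6g stays beyond −1 throughout and Jam2 lies on both sides of it, from −1.10 to −0.82.

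Other genes of the junction were counted in 4 lists that do not hold the 9 genes. Beside the scaffolds, 22 of 23 further junction scaffolds and adaptors were tested. In Gpr124-/- against WT 2 rose, Amotl2 and Jup, and 5 fell, Mpp7, Amot, Pkp4, Magi3 and Arhgef2, with a median log2 fold change of −0.04. Over all genes tested, 10.5% rose and 9.32% fell. With the letter term 1 rose and 1 fell, and none passed both thresholds (edgeR). Mpp7, a scaffold of the membrane-associated guanylate kinase family, passed both thresholds (log2 fold change −1.35 ± 0.16, SE, adjusted p = 6.15e-05, edgeR). In Gpr124ΔC/ΔC none passed the adjusted test in edgeR, DESeq2 or limma, and 2 had an unadjusted p under 0.05 in edgeR, Amotl1 and Amotl2, beside 14.4% of all genes.

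Among 9 of 13 further junctional immunoglobulin proteins that could be tested, 2 rose and 2 fell in Gpr124-/- against WT. Mcam, or CD146, went from 313 to 811 TPM (log2 fold change 1.34 ± 0.13, SE, adjusted p = 1.47e-05, edgeR), and Pecam1, the CD31 of the sort, rose by 0.54 on the log2 scale (adjusted p = 0.00778, edgeR). Igsf5, also called JAM-4, fell from 19.1 to 1.47 TPM (log2 fold change −3.72 ± 0.32, SE, adjusted p = 4.08e-06, edgeR). Nectin1, an adherens junction protein, fell by 3.08 on the log2 scale from a low WT level of 3.17 TPM (adjusted p = 0.000155, edgeR). In Gpr124ΔC/ΔC Mcam rose by 0.55 on the log2 scale (adjusted p = 0.0357, edgeR) and Igsf5 fell by 2.06 on the log2 scale (adjusted p = 0.00128, edgeR). The list median was 0.04 in Gpr124-/- and −0.20 in Gpr124ΔC/ΔC. Over all genes tested 10.5% rose and 9.32% fell in Gpr124-/-, and with the letter term 1 gene of the list rose and 1 fell (edgeR). In Gpr124ΔC/ΔC 1.85% of all genes rose and 2.24% fell in edgeR. Of the list limma called 1, beside 2.79% of all genes, and DESeq2 called 3, beside 6.45%. With the letter term edgeR called 1 higher and 3 lower in Gpr124ΔC/ΔC, beside 5.9% of all genes.

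Of 29 further polarity proteins, 24 were tested. In Gpr124-/- against WT Dlg2, Dlg4 and Dlg5 rose and Tiam1 and Mpp5 fell, with a list median of 0.23. These are 3 and 2 of 24 genes, near the 10.5% and 9.32% over all genes tested, and with the letter term edgeR called 0 of the list at an adjusted p under 0.05. Tiam1, a RAC activator that binds PAR-3, fell from 25.4 to 8.70 TPM (log2 fold change −1.60 ± 0.21, SE, adjusted p = 0.000145, edgeR). Dlg2 and Dlg4 were below 2 TPM on average in each genotype. In Gpr124ΔC/ΔC none passed in edgeR or limma. In edgeR 2 had an unadjusted p under 0.05, Pard6a and Dlg5, beside 14.4% of all genes. DESeq2 called 1, Pard6a, at an adjusted p under 0.05, beside 6.45% of all genes.

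The membrane proteins of the junction had the largest median size of change of the 4 lists in Gpr124-/-, at 1.60 on the log2 scale beside 0.27 to 0.40. With the letter term it was 0.97, beside 0.81 for the junctional immunoglobulin proteins and 0.54 for the polarity proteins. Of 9 tested among 11, 5 fell in Gpr124-/- against WT and Cdh5, for VE-cadherin, rose by 0.74 on the log2 scale (adjusted p = 0.00169, edgeR), beside 9.32% lower and 10.5% higher over all genes tested. Ocln fell by 2.87, Lsr by 2.25, Marveld2 by 2.19, Cldn5 by 2.12 and Cdh2 by 0.90 on the log2 scale. In Gpr124ΔC/ΔC, Cldn5 fell by 0.97 and Lsr by 0.84 on the log2 scale in edgeR, and Ocln had a log2 difference of −0.98 that did not pass (adjusted p = 0.0512, edgeR). At an adjusted p under 0.05 DESeq2 called 4 of the 9 in that comparison, limma 3 and edgeR with the letter term 4, while of all genes these fits called 6.45%, 2.79% and 5.9%. The edgeR fit without the letter called 2.24% lower and 1.85% higher. The list medians of log2 fold change were −1.60 and −0.54, beside −0.43 and −0.24 for the 8 genes described above. The medians of −1.60 and −0.54 were the values of Cldn1 and Cldn3, which had low WT means of 1.64 and 1.27 TPM. Neither gene was called in the comparison concerned (adjusted p = 0.138 and 0.796, edgeR). Genes of these lists that did not pass both thresholds were named after their values had been seen.

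**Figure D5:**
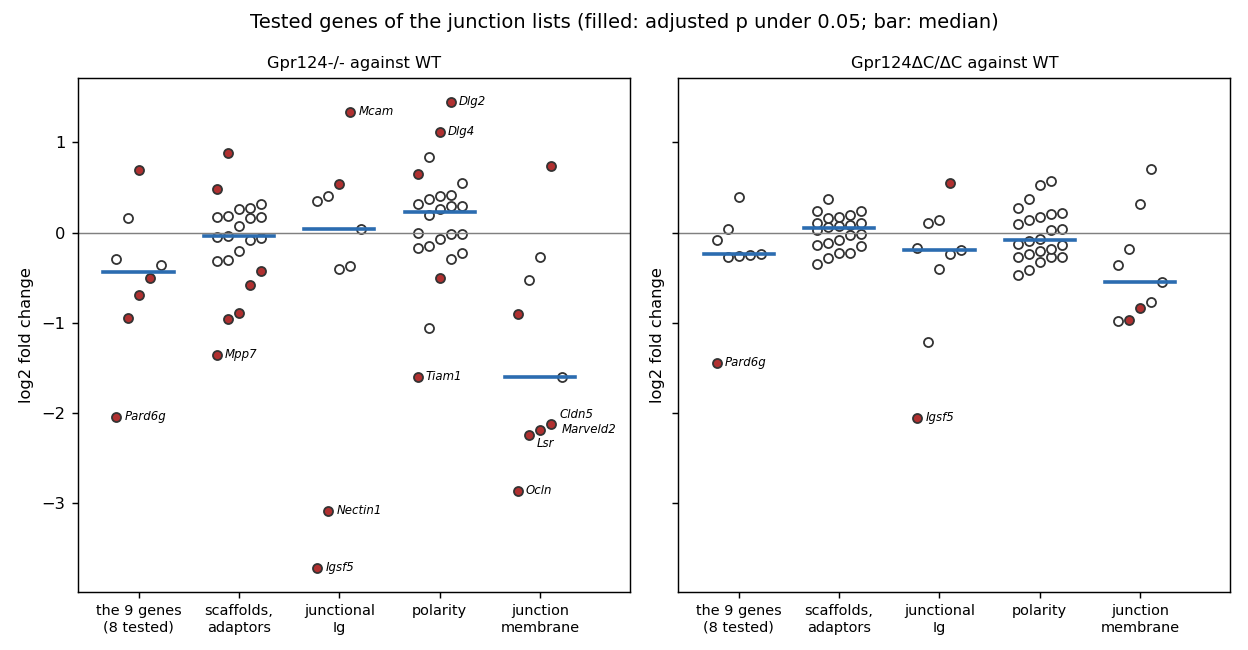
Log2 fold changes in Gpr124-/- and Gpr124ΔC/ΔC against WT (vertical axis) of the 8 tested members and of the tested genes of the 4 junction lists, with filled points for an adjusted p under 0.05, a bar for each median, and names for genes past both thresholds. The 9 membrane proteins reach lower, with a median of −1.60 in Gpr124-/-, than the 8 members, with a median of −0.43.

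Across the 12 libraries, each tested member had genes of closely similar pattern among the 9989 genes that averaged 8 CPM (reads scaled to a fixed library total) or more. Pearson correlations of log2 CPM describe this likeness. Genotype, library and depth are shared by all genes compared, so a high value is common. Pard6g was most like Nkd1 (r = 0.986), an intracellular antagonist of WNT signaling, Ackr1 (0.980) and Usp6nl (0.979). Jam2 was most like 4931406P16Rik (r = 0.988) and 4930578C19Rik, and Tjp1 like Mpp1 (r = 0.977), Bche and Hbp1. Pard3 was most like Rassf3 (r = 0.987), Afdn, which encodes the junction scaffold afadin, and Foxq1. Cgnl1 was most like Lgmn (r = 0.974), Tmem37 and Asl, and Esam like Pef1 (r = 0.968), Ctsa and Jmjd8. F11r was most like Trp53i11 (r = 0.962), Jup and Mfng. The lowest leading value was that of Jam3, most like Ets2 (r = 0.946), 2410002F23Rik and Timp3.

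Promoter windows of RefSeq were matched for Tjp1, Cgn, Cgnl1 and F11r (1 each) and Pard3 (2), and not for Jam2, Jam3, Esam and Pard6g. In the 250 bases upstream of the start the letters CTTTGA, the core of the TCF/LEF motif, and the longer CTTTGAT were searched on both strands. Neither was found in the windows of these 5 genes. Among all 32851 windows, 13.8% held CTTTGA and 3.21% held CTTTGAT, and the shorter motif is contained in the longer.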

How the data were processed

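RNA from 12 sorted samples, 1 embryo each, was made into poly(A)-selected libraries with an ultra-low-input SMART-Seq kit and sequenced in paired ends by Genewiz. The authors deposited counts, the whole reads on each Ensembl gene without normalization, and TPM values, which are length-normalized counts with a fixed total per library. Recomputed TPM differed from the deposited TPM by at most 0.00498% at 1 TPM or more. The submitters' processing notes name bcl2fastq 2.17 and mm10. The aligner, the counter and the strand setting are not given in the sources used here. Symbols, exons and coordinates came from GENCODE vM21 (GRCm38), which named 49056 identifiers.

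Counts were tested in R 4.3.3 with edgeR 4.0.16. filterByExpr (count minimum 10, total 15) kept 16637 genes. TMM factors were 0.946 to 1.04, and all 12 libraries entered 1 quasi-likelihood model by genotype (glmQLFit, glmQLFTest). P-values were adjusted by Benjamini-Hochberg over all genes tested in each comparison, the interval of a log2 fold change is its 95% interval from the same fit, and both thresholds means an adjusted p under 0.05 and a log2 fold change beyond 1 in either direction. TPM of the 9 genes (27 tests) and family shares (21 tests) were compared by exact two-sided permutation over 70 orders, for which 0.0286 is the smallest p. Alternatives were upper-quartile factors, no filter, a mean of 50 counts, DESeq2 1.42.0, only the 2 genotypes compared, the label letter as a term, limma 3.58.1 on log2(TPM + 1) or log2(TPM + 0.1) for genes at 1 TPM or more on average, the first of these with no filter, TPM without Gm23935, shares of raw counts, and each library left out in turn. The fit without both libraries with over 10% of TPM in Gm23935 was chosen after seeing the data. The models were tested on simulated data.

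The 9 genes, the junction, family and marker lists and the tests were chosen with earlier results of these data known. The text names the 9 genes, list genes past both thresholds (other list genes were named after their values had been seen), up to 3 genes most like each member, overlapping genes, other family genes and markers. Summed TPM of the remaining marker lists was 26.9 to 64.1, 13.0 to 30.8 and 30.5 to 38.1 for pericytes (WT, Gpr124ΔC/ΔC, Gpr124-/-), 48.5 to 103, 63.1 to 105 and 77.5 to 110 for neurons, 113 to 136, 111 to 119 and 138 to 165 for progenitors, 9.23 to 57.4, 5.51 to 12.5 and 8.07 to 9.90 for fibroblasts, and 119 to 806, 146 to 1563 and 32.4 to 278 for epithelium. Within these sums, Abcc9 and Stmn2 rose and Rgs5, Slc1a3 and Pdgfra fell in Gpr124-/- against WT, and Slc1a3 fell in Gpr124ΔC/ΔC (edgeR). Some genes of the lists are not reported here. Nothing beyond 1 embryo per library describes the replicates, and counting intervals and limits cover counting error only. Python 3.11.15, pandas 2.3.3, numpy 2.4.6, scipy 1.17.1 and matplotlib 3.10.9 were used.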

Additional observations from a re-analysis of the deposited data

Results flagged for a closer look

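Cgn in WT replicate 3 stood apart from the other 3 WT libraries, with a TPM of 0 where each of the others had 2 reads; the gap was 0.839 of the range of the group, above Dixon's critical value for 4 samples. The share of Cgn in the summed TPM of Cgn and Cgnl1 was 0 in the same library, with a gap of 0.856 of the range. Both rest on 2 reads, a difference within counting error. In all, 48 groups of 4 libraries were examined, and chance sets apart about 1 group in 20.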

How the results depend on the processing

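The number of the 8 genes past both thresholds in Gpr124-/- against WT was 1, and it was 1 to 2 with each library left out in turn, 2 without both libraries rich in Gm23935 and 5 with no threshold on the fold change. Jam2 was the second gene, and it passed both thresholds without WT replicate 1 or 2 or Gpr124-/- replicate 1 or 3. The number past the adjusted p alone was 5, and it was 1 with the label letter as a term, 3 with limma on log2(TPM + 1) without a filter and 5 to 6 with each library left out. Between the mutants the number past both thresholds was 0, and 1 without a fold threshold. The number past the adjusted p there was 1. It was 2 with upper-quartile factors, 3 with DESeq2, 0 with only the 2 genotypes, the letter term or any of the 3 limma fits, 0 to 2 with each library left out, and 2 without both libraries rich in Gm23935. In Gpr124ΔC/ΔC against WT it was 1 under every alternative run. Reversals concerned differences near 0. The log2 fold change of Tjp1 in Gpr124ΔC/ΔC against WT was 0.0234 without WT replicate 3, 0.0027 without Gpr124ΔC/ΔC replicate 1 and −0.21 at its lowest with 1 library left out, and its ratio of mean TPM, 1.001, became 0.998 without Gm23935 and 0.941 in CPM scaled by TMM. For Esam between the mutants the log2 fold change became 0.0139 and 0.0244 without Gpr124ΔC/ΔC replicates 3 and 4 and 0.0117 without Gpr124-/- replicate 1 or 2, with a lowest value of −0.10, and its difference in share was 1.02 percentage points in raw counts. For Pard3 between the mutants it became 0.162 with the letter term, 0.0647 without Gpr124ΔC/ΔC replicate 1 and 0.0693 without both libraries rich in Gm23935, and it was at least −0.25 with any library left out. The cause of these changes was not tested. Jam2 in Gpr124-/- against WT did not pass with the letter term (adjusted p = 0.139, edgeR) or limma without a filter (0.0738), and Tjp1 did not with the letter term (0.0674) or any limma fit (0.0729 to 0.129). The label letter, which some libraries of different genotypes share, was the one block the labels allow, and it was fitted as the letter term. There were 4 embryos per genotype, and 65 to 127 reads of Pard6g in a mutant library. The smallest difference that could be detected was not tested, so a difference that did not pass is not shown to be absent.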
